A study of Mus musculus with 6 samples.

Results

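Mitochondrial DNA, RNA and translation factors are the nuclear-encoded proteins that copy, transcribe, process and translate the mitochondrial genome. The 40 genes were chosen by symbol from a list of such factors that leaves out mitochondrial ribosomal proteins and aminoacyl-tRNA synthetases. The list was set with earlier results of these data known, so its shares beside those of all genes are descriptions. All 40 are among the 24062 gene symbols of the count table, and all 40 passed the filter on low counts that left 13300 genes for testing. Their lowest count in any library was 47 reads. RNA sequencing was done on brown adipose tissue, a heat-producing fat depot, of male C57BL/6 mice at 12 weeks. One group of 3 mice carried the genotype label heterozygous for FAM195A and the other group of 3 the label knockout, so neither group was labelled wild type. FAM195A is described in the series as an RNA-binding stress granule protein needed for heat production in the cold. How the allele was made and the housing temperature are details not given in the sources used here. No label names a litter or a pairing of mice across the groups, but the library titles carry prefixes that both groups share.

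The libraries held 18781401 to 25084627 reads counted in genes. The targeted gene, Fam195a (Mcrip2 in newer annotation), stood at 69.0, 70.5 and 103 CPM, the read count relative to the TMM-adjusted library size, in heterozygous-labelled libraries 1, 2 and 3. It stood at 50.5, 82.0 and 81.3 CPM in knockout-labelled libraries 1, 2 and 3, so the groups overlapped (log2 fold change -0.18, SE 0.241, adjusted p = 0.896). Its transcript level does not bear out the labels, so directions are stated below for libraries by their label, knockout against heterozygous. All 24 skeletal muscle markers were present, and 0 of the 24 passed the test, although in all 24 every knockout-labelled library lay below every heterozygous-labelled one. Of all genes tested, 9.89% lay apart in this way and 8.11% in the opposite way. The summed level of the muscle markers ran from 12597 to 37402 CPM in the heterozygous-labelled group and from 4417 to 7932 CPM in the knockout-labelled group. The markers of brown adipocytes were present too, 13 of 13, with sums of 8479 to 11593 and 8404 to 13580 CPM. One of them, Elovl3, which elongates fatty acids, rose from 86.0, 98.9 and 88.3 CPM to 182, 161 and 216 CPM (log2 1.03, adjusted p = 0.0418). Cidea, a lipid droplet protein, was also apart and higher without passing (log2 0.42, adjusted p = 0.421), and the other 11 overlapped. Of the 13 markers, 8 had log2 fold changes below 0, Ucp1 at -0.16 among them, and 5 above, with a median of -0.10.

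Mitochondria keep a small circular genome that encodes core subunits of the respiratory chain together with the ribosomal and transfer RNAs needed to make them. Every protein that replicates this DNA, transcribes it into long polycistronic RNAs, cuts and modifies the transfer RNAs, stabilises or degrades the messages and drives the mitochondrial ribosome is encoded in the nucleus and imported. Brown adipocytes are packed with mitochondria, and their heat production rests on a respiratory chain that needs these locally made subunits. The mitochondrially encoded messages themselves could not be set beside the factors, since 0 of 13 of their symbols matched a line of the table.

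Of the 40 factors, 6 fell and 0 rose in the knockout-labelled libraries at an adjusted p of 0.05 (edgeR quasi-likelihood test, Benjamini-Hochberg adjustment over all 13300 genes). These were the elongation factor Gfm1, the ribonuclease Pnpt1, the tRNA-modifying enzyme Mto1, the translational activator Taco1, the ribosome-recycling factor Gfm2 and the RNA-stabilising protein Lrpprc. They stood at 38.6% to 56.1% of the heterozygous-labelled level. Of all genes tested, 71 fell, or 0.534%, against 15% of the factors, and 7 rose, or 0.0526%. The median log2 fold change was -0.41 over the 40 factors and 0.02 over all genes tested, and 36 of the 40 had values below 0 against 6234 of the 13300 genes. At an unadjusted p under 0.05, 24 factors were lower and 0 higher, where 8.04% of all genes were lower and 4.05% higher.

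The 6 calls depended on which libraries were in the fit, while the sizes of the differences did not move much. All 6 held without heterozygous-labelled library 1, where 2.81% of all genes fell. Without knockout-labelled library 3, where 0.73% of all genes fell, 5 held and Lrpprc did not. Without heterozygous-labelled library 3 Gfm1 alone held, where 0.0445% of all genes fell. None held without heterozygous-labelled library 2, knockout-labelled library 1 or knockout-labelled library 2, where edgeR called 0 of all genes tested and the smallest adjusted p of any gene was 0.102, 0.132 and 0.106. In those 3 fits 20, 22 and 25 factors were lower at an unadjusted p under 0.05. Over all genes 1257 of 13527, 1450 of 13433 and 1393 of 13467 were under it, counted in either direction. Over the 6 fits the median of the factors ran from -0.38 to -0.48, and Gfm1 stayed between -1.45 and -1.28. DESeq2 called 15 of the 40 factors lower and 0 higher, against 5.04% of the genes it adjusted called lower.

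**Figure D1:**
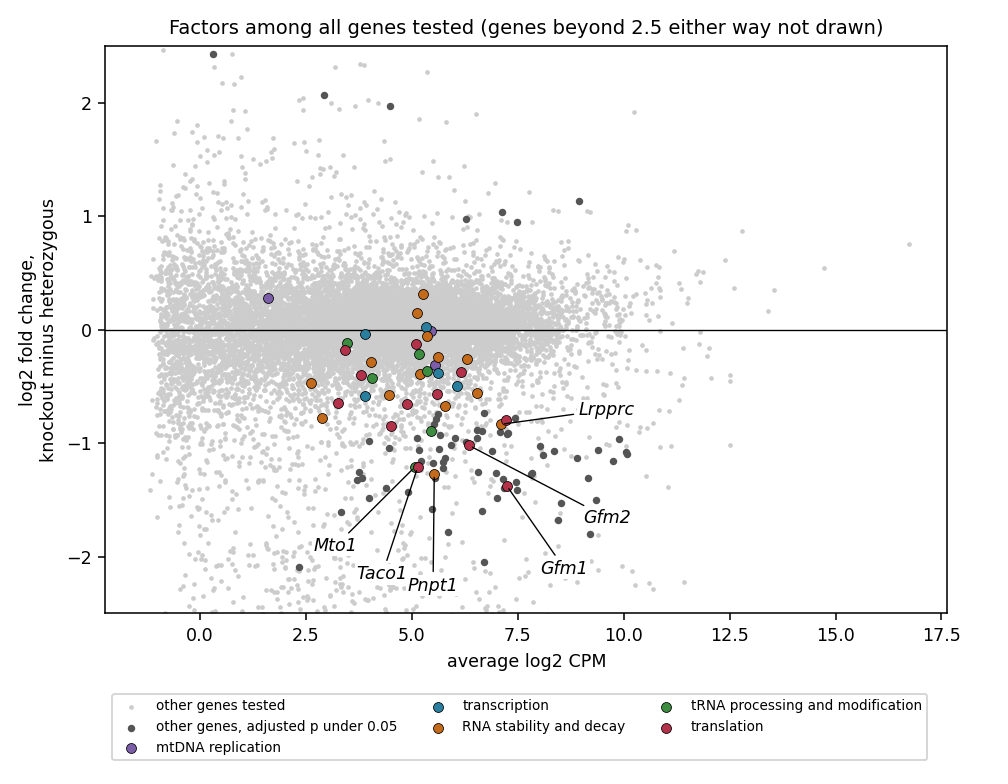
Each point is 1 gene, with average log2 CPM on the horizontal axis and log2 fold change (knockout-labelled minus heterozygous-labelled) on the vertical axis; coloured points are the 40 factors by role, grey points the other genes tested, and dark points other genes with an adjusted p under 0.05. The 6 named factors that fell lie between -1.37 and -0.83, 36 of 40 factors lie below 0, and 73 genes beyond 2.5 in either direction, none of them a factor, are not drawn.

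Translation factors had the lowest median of the 5 role groups. All 12 had log2 fold changes below 0, with a median of -0.65, 3 of the 12 fell, and in 10 of them every knockout-labelled library lay below every heterozygous-labelled one. Over the 40 factors 28 lay apart in this way and 0 in the opposite way, against 9.89% and 8.11% of all genes tested. Summed over the 12 genes, the level was 908, 818 and 807 CPM in heterozygous-labelled libraries 1, 2 and 3 and 468, 481 and 464 CPM in knockout-labelled libraries 1, 2 and 3.

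Gfm1, the elongation factor that moves the mitochondrial ribosome along the message after each peptide bond, had the largest fold change of the 40 factors. It lies on the plus strand of chromosome 3 from 67430096 to 67476529 (GRCm38, GENCODE M21). Its level was 244, 214 and 194 CPM in the heterozygous-labelled group and 88.2, 83.6 and 79.9 CPM in the knockout-labelled group. The lowest heterozygous-labelled library thus lay far above the highest knockout-labelled one (217 ± 24.9 against 83.9 ± 4.15 CPM, each SD with n = 3; log2 -1.37, SE 0.135, adjusted p = 0.0185). Gfm2, a relative of Gfm1 that works with Mrrf to split spent ribosomes, lies on the plus strand of chromosome 13 from 97137937 to 97181195. It stood at 121, 106 and 100 CPM and at 52.5, 51.5 and 57.5 CPM, again with no overlap (log2 -1.02, SE 0.127, adjusted p = 0.0259). Taco1, which activates translation of the message for cytochrome oxidase subunit I, lies on the plus strand of chromosome 11 from 106066061 to 106073612. It went from 51.3, 45.3 and 50.9 CPM to 20.3, 19.5 and 23.9 CPM (log2 -1.21, SE 0.137, adjusted p = 0.0248). Taco1 shares 17.7% of its merged exon bases with an antisense transcript, Taco1os, and its value is uncertain if strand was not used in counting.

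The promoter windows of Gfm1 and Gfm2 are shown because these related genes fell together while the motifs searched differed between them. Each runs from 250 bases before to 50 bases after the RefSeq start (GRCm38.p6), 5′ to 3′ on the plus strand, at chr3:67429865-67430164 for Gfm1 and chr13:97137687-97137986 for Gfm2. Capitals mark a match on either strand to the ETS core CCGGAAG, the site of the GABP activator, or to a loose form of the site of the activator NRF-1, spelled GCGC, any base, then TGCGC.
Gfm1: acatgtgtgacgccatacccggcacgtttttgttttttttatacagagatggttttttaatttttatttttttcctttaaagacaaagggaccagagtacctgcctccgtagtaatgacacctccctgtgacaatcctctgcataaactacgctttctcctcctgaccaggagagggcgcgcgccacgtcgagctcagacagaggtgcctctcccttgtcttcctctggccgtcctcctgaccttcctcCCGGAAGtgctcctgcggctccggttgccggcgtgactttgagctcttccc
Gfm2: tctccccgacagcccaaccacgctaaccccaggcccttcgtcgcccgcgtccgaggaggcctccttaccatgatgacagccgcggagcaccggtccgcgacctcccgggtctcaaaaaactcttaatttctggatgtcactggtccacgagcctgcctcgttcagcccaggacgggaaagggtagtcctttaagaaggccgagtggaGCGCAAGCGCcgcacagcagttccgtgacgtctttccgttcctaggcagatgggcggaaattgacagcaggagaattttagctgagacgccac
The Gfm1 window holds 1 ETS core, whose first base is 1 base before the start, and the Gfm2 window holds 1 loose NRF-1 match, whose first base in the window is 43 bases before the start.

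Tufm, the elongation factor that brings aminoacyl-tRNA to the ribosome, did not pass although its groups did not overlap. It stood at 199, 181 and 192 CPM in the heterozygous-labelled group and at 101, 124 and 104 CPM in the knockout-labelled group (log2 -0.80, SE 0.133, adjusted p = 0.0581). Its exchange factor Tsfm, which reloads it with GTP, stood at 32.6, 27.3 and 26.9 CPM and at 17.2, 21.0 and 10.1 CPM. The fold change of Tsfm was similar in size with a wide 95% interval, -1.46 to -0.23, and knockout-labelled library 3 was its lowest (log2 -0.85, adjusted p = 0.214). Of the initiation genes, Mtif3, the factor that keeps ribosomal subunits ready for a start, was at 36.6, 36.2 and 35.9 CPM and at 21.5, 24.3 and 23.3 CPM (log2 -0.65, adjusted p = 0.0719). Gtf3a lies on the opposite strand and shares 29.4% of the merged exon bases of Mtif3. Its own log2 fold change was 0.16. Mtif2, which recruits the initiator tRNA, had tight heterozygous-labelled values of 81.7, 80.4 and 81.1 CPM and knockout-labelled values of 66.8, 59.1 and 61.9 CPM (log2 -0.37, adjusted p = 0.19). Mtfmt, which formylates that initiator tRNA, was at 11.4 to 11.6 CPM and at 6.09 to 8.31 CPM (log2 -0.64, adjusted p = 0.153).

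The release factors and the recycling factor Mrrf did not pass. The release factors Mtrf1 and Mtrf1l had log2 fold changes of -0.40 and -0.18, and Mrrf, the partner of Gfm2, one of -0.12. Mrrf stood at 38.1, 34.7 and 34.8 CPM in the heterozygous-labelled group and at 35.5, 33.4 and 29.8 CPM in the knockout-labelled group. Those groups overlapped, and the 95% interval of -0.42 to 0.17 does not reach the fold change of Gfm2. Guf1, a GTPase related to the elongation factors, was at a log2 fold change of -0.57 (adjusted p = 0.159).

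**Figure D2:**
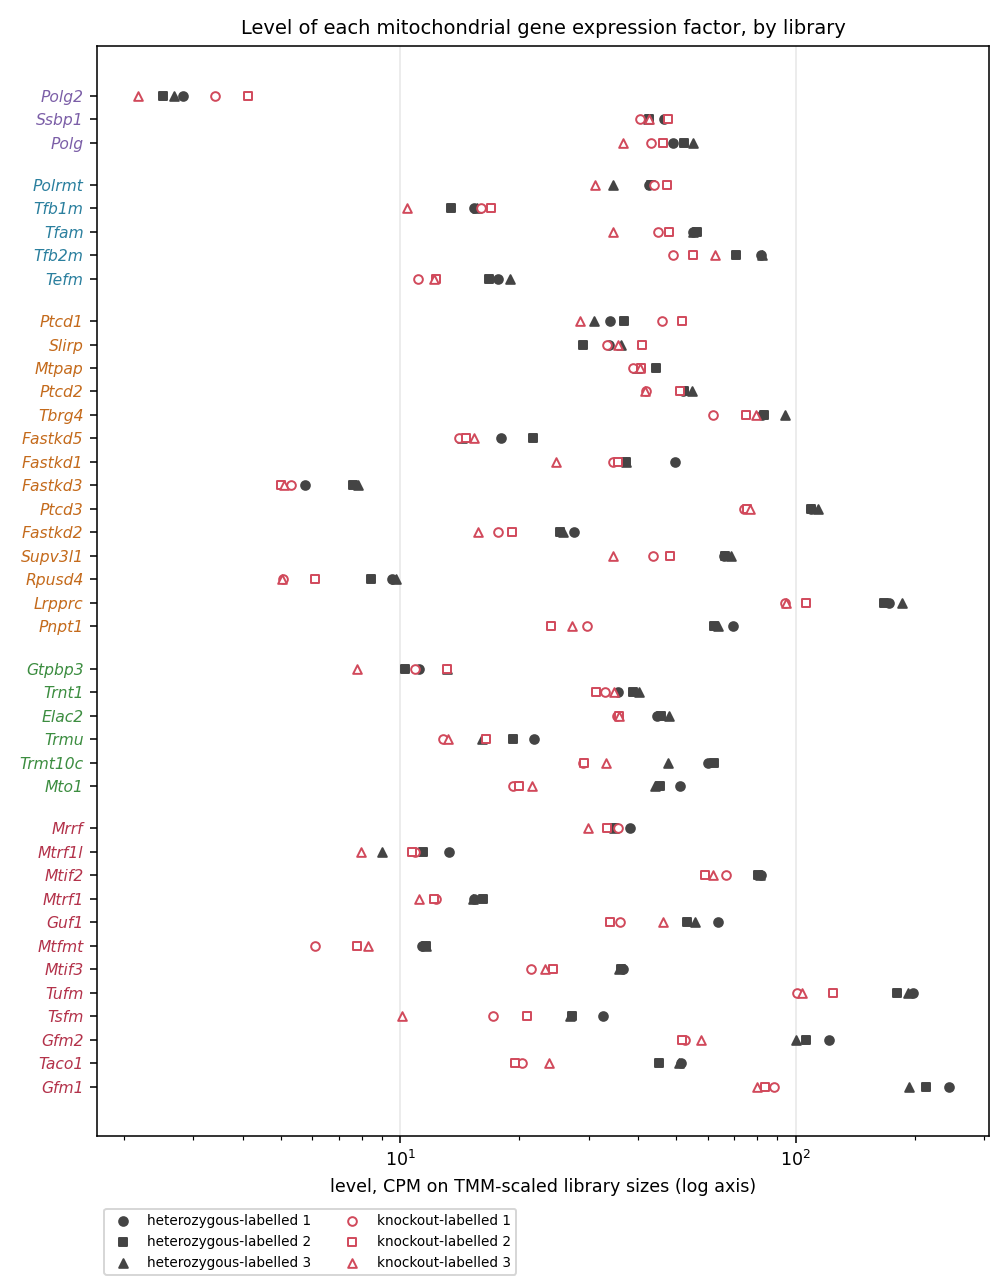
Each row is 1 factor, grouped and coloured by role, and each symbol is its level in 1 library in CPM on a log axis, filled for the 3 heterozygous-labelled and open for the 3 knockout-labelled libraries. Open symbols lie left of all filled ones in 28 of the 40 rows and right of all filled ones in 0.

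In the group of RNA stability and decay factors, 2 of 14 fell, Pnpt1 and Lrpprc. The median was -0.43, and 12 of the 14 had values below 0. In 10 of them the knockout-labelled libraries were all below the heterozygous-labelled ones, against 9.89% of all genes tested. Pnpt1, the polynucleotide phosphorylase that degrades mitochondrial RNA, lies on the plus strand of chromosome 11 from 29130744 to 29161828. Its level was 69.5, 62.4 and 63.5 CPM in the heterozygous-labelled group and 29.7, 24.1 and 27.3 CPM in the knockout-labelled group (65.1 ± 3.83 against 27.0 ± 2.83 CPM, each SD with n = 3; log2 -1.27, SE 0.131, adjusted p = 0.0185). The groups were well apart. Supv3l1, the helicase that unwinds RNA for Pnpt1, stood at 66.1, 66.2 and 68.7 CPM and at 43.5, 48.2 and 34.6 CPM. These groups did not overlap either, but the gene did not pass (log2 -0.67, SE 0.148, adjusted p = 0.0825).

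Lrpprc, which binds mitochondrial messages and keeps them stable, occupies chromosome 17 from 84705247 to 84790789 on the minus strand. It went from 172, 167 and 186 CPM to 93.9, 106 and 94.7 CPM (log2 -0.83, SE 0.121, adjusted p = 0.0418). Slirp, the small protein that forms a complex with Lrpprc and protects it, stood at 33.8, 29.0 and 36.1 CPM in the heterozygous-labelled libraries. In the knockout-labelled libraries Slirp stood at 33.3, 40.9 and 35.6 CPM, so its groups overlapped (log2 0.15, SE 0.145, adjusted p = 0.824). The 95% interval of Slirp, -0.19 to 0.49, lies outside that of Lrpprc, -1.12 to -0.55. The value of Slirp is uncertain, because 93.9% of its merged exon bases in GENCODE M21 overlap those of Snw1 on the opposite strand. Snw1, a splicing factor, had a log2 fold change of 0.09.

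The promoter windows of Lrpprc and Slirp are shown because the products work as 1 complex, while Lrpprc fell and Slirp did not pass. They lie at chr17:84790737-84791036 on the minus strand and at chr12:87443646-87443945 on the plus strand (RefSeq, GRCm38.p6), each 5′ to 3′ in the direction of its gene. Capitals mark matches on either strand to CCGGAAG or to the YY1 core, AAGAT followed at once by GGCGG. YY1 is a regulator of many mitochondrial genes.
Lrpprc: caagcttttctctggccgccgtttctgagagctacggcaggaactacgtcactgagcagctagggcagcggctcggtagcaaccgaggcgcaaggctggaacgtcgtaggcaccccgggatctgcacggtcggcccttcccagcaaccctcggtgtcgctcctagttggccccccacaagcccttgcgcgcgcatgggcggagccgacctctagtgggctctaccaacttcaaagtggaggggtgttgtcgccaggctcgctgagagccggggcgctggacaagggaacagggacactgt
Slirp: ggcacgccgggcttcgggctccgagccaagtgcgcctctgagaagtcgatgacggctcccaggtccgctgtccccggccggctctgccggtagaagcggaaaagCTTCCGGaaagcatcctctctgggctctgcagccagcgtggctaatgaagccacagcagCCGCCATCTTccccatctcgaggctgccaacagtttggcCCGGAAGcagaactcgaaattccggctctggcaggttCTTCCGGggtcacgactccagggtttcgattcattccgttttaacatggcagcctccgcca
The Slirp window holds 3 ETS cores, with first bases 146, 48 and 11 bases before the start, and 1 YY1 core, 87 bases before it. None of the 4 patterns searched is spelled in the Lrpprc window.

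The other RNA factors did not pass. Ptcd3, a pentatricopeptide protein bound to the small ribosomal subunit, showed the least spread of them. It stood at 109, 109 and 114 CPM in the heterozygous-labelled group and at 74.1, 75.3 and 76.7 CPM in the knockout-labelled group, with no overlap (log2 -0.56, SE 0.106, adjusted p = 0.0736). Rpusd4, a pseudouridine synthase, stood at 9.55, 8.42 and 9.74 CPM and at 5.06, 6.09 and 5.03 CPM (log2 -0.77, adjusted p = 0.0901). In the FASTK family of RNA-binding proteins, Fastkd2 was at 27.5, 25.3 and 25.7 CPM and at 17.7, 19.2 and 15.7 CPM (log2 -0.58, adjusted p = 0.0939). Its relatives had log2 fold changes of -0.47 for Fastkd3, -0.39 for Fastkd1, -0.29 for Fastkd5 and -0.26 for Tbrg4. Fastkd5 shares 65.2% of its merged exon bases with Ubox5, whose log2 fold change was -0.08. The poly(A) polymerase Mtpap was at -0.06, with a 95% interval of -0.33 to 0.21. Of the further pentatricopeptide proteins, Ptcd2 was at -0.24 and Ptcd1 at 0.31, the highest value of the 40. Ptcd1 stood at 33.9, 36.9 and 30.9 CPM and at 45.97, 51.7 and 28.5 CPM, with knockout-labelled library 3 below all the others (adjusted p = 0.721).

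Among the 6 tRNA processing and modification enzymes, Mto1 fell and all 6 had log2 fold changes below 0, with a median of -0.40. Mto1, which with Gtpbp3 attaches a taurine-containing group to the wobble uridine of mitochondrial tRNAs, lies on the plus strand of chromosome 9 from 78448208 to 78475348. It went from 51.1, 45.5 and 44.0 CPM to 19.3, 19.98 and 21.5 CPM (46.9 ± 3.73 against 20.3 ± 1.13 CPM, each SD with n = 3; log2 -1.21, SE 0.127, adjusted p = 0.019). Gtpbp3 stood at 11.1, 10.3 and 13.1 CPM and at 10.9, 13.1 and 7.80 CPM. Its groups overlapped, and its interval of -0.64 to 0.41 lies outside that of Mto1, -1.51 to -0.91 (log2 -0.12, adjusted p = 0.936). Trmu, which adds sulfur to the same uridine, was at -0.43 on the log2 scale (adjusted p = 0.395). Trmt10c, a subunit of the enzyme that cuts the 5′ end of mitochondrial tRNAs, stood at 60.1, 62.3 and 47.5 CPM and at 29.0, 29.3 and 33.2 CPM. Its groups did not overlap, and it missed the threshold narrowly (log2 -0.89, SE 0.147, adjusted p = 0.0581). Elac2, which cuts the 3′ end, was at 44.7, 45.6 and 47.8 CPM and at 35.3, 35.9 and 35.8 CPM (log2 -0.37, adjusted p = 0.194). Trnt1, which adds the CCA tail, had a log2 fold change of -0.21.

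None of the 5 transcription factors and none of the 3 replication factors passed. The medians were -0.39 and -0.01. Tefm, which keeps the polymerase elongating, stood at 17.7, 16.8 and 18.9 CPM and at 11.1, 12.3 and 12.2 CPM (log2 -0.58, SE 0.14, adjusted p = 0.0981). Tfb2m, which melts the promoter, was at 81.7, 70.6 and 82.4 CPM and at 49.1, 55.0 and 62.5 CPM (log2 -0.49, adjusted p = 0.16). Tfam, which packages mitochondrial DNA and starts its transcription, had heterozygous-labelled values of 54.9, 56.5 and 55.0 CPM and knockout-labelled values of 44.8, 47.9 and 34.6 CPM (log2 -0.39, adjusted p = 0.344). In each of these 3 genes the knockout-labelled libraries lay below the heterozygous-labelled ones.

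Polrmt, the mitochondrial RNA polymerase itself, stood at 42.6, 43.1 and 34.5 CPM and at 43.8, 47.4 and 31.1 CPM. Its groups overlapped, and its log2 fold change of 0.03 (95% interval -0.41 to 0.47) became -0.01 when libraries were scaled by size alone. Tfb1m, which methylates the small ribosomal RNA, was at -0.04, with a 95% interval of -0.53 to 0.46. In replication, Polg, the catalytic subunit of the DNA polymerase, stood at 48.9, 52.1 and 54.9 CPM and at 43.1, 46.2 and 36.5 CPM, without overlap (log2 -0.31, adjusted p = 0.42). Its accessory subunit Polg2, at 2.17 to 4.14 CPM the least abundant of the 40, was at 0.28 on the log2 scale (adjusted p = 0.849). The single-stranded DNA-binding protein Ssbp1 was at 46.6, 42.7 and 42.4 CPM and at 40.4, 47.6 and 42.5 CPM (log2 -0.01, 95% interval -0.30 to 0.27).

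**Figure D3:**
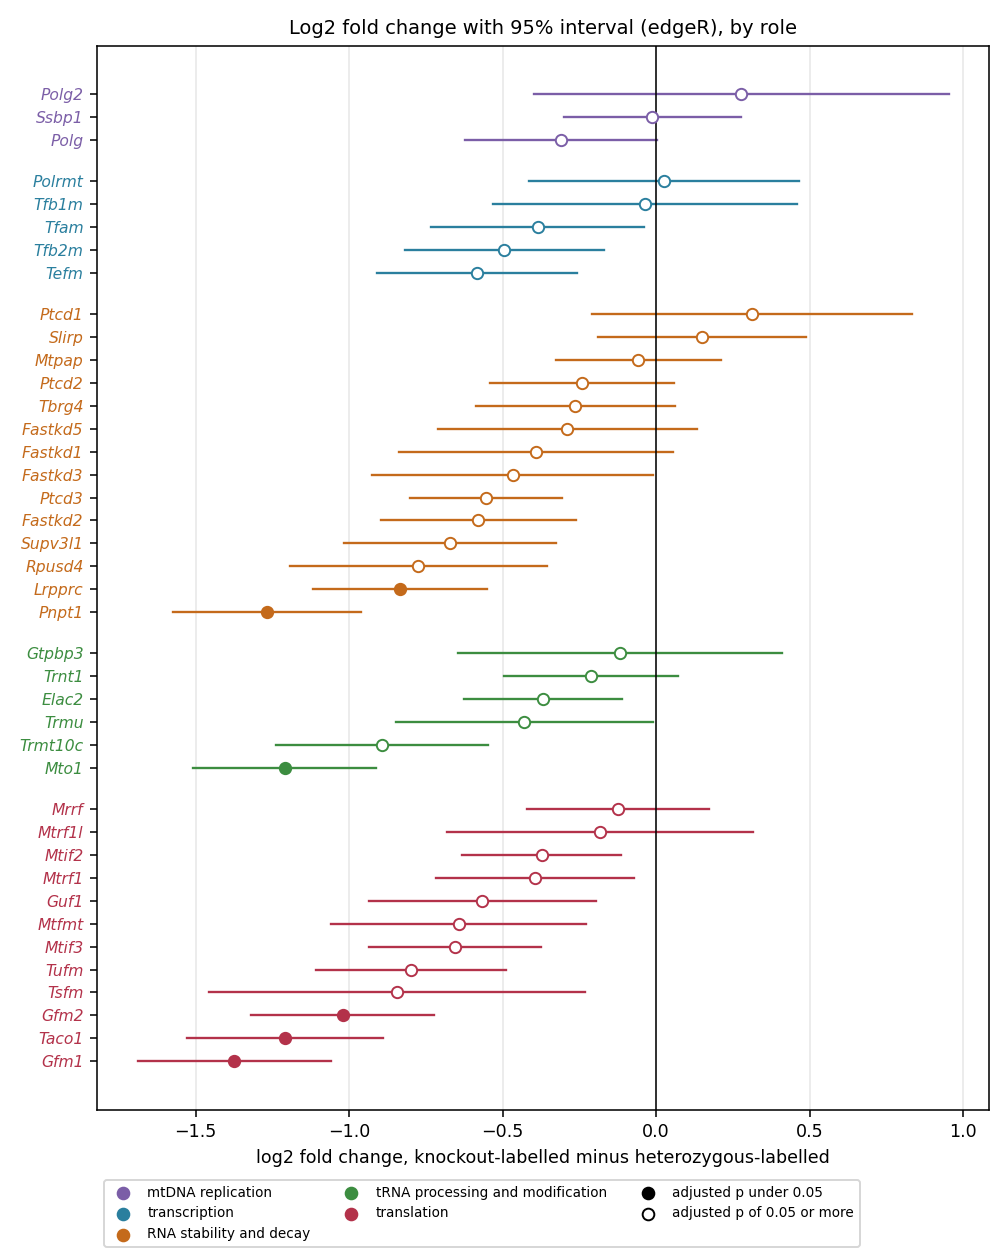
Points are log2 fold changes (knockout-labelled minus heterozygous-labelled) of the 40 factors with their 95% intervals from edgeR, by role, filled where the adjusted p was under 0.05. The 6 filled points are 3 translation factors, 2 RNA stability and decay factors and 1 tRNA enzyme, and the intervals of all 3 replication factors include 0.

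Ratios were taken within 8 pairs that share a complex, a substrate or a family, and no pair passed a test. The log2 ratio of Lrpprc to Slirp was 2.35, 2.53 and 2.37 in the heterozygous-labelled group and 1.496, 1.38 and 1.41 in the knockout-labelled group, a difference of -0.99 with no overlap. That ratio is uncertain, because 93.9% of the merged exon bases of Slirp overlap those of Snw1. For Mto1 to Gtpbp3 the log2 ratio was 2.20, 2.15 and 1.75 against 0.83, 0.60 and 1.46, a difference of -1.07. The ratios of Pnpt1 to Supv3l1 (-0.59), Polg to Polg2 (-0.54) and Gfm1 to Gfm2 (-0.35) also had groups that did not overlap. Each of these 5 gave p = 0.1 in an exact two-sided permutation test, the smallest that 3 against 3 allows, and an adjusted p of 0.16 over the 8 pairs, so none could pass. The ratios of Tufm to Tsfm (0.10, exact permutation p = 1), Tfb1m to Tfb2m (0.43, exact permutation p = 0.4) and Mtrf1 to Mtrf1l (-0.22, exact permutation p = 0.2) overlapped between the groups.

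**Figure D4:**
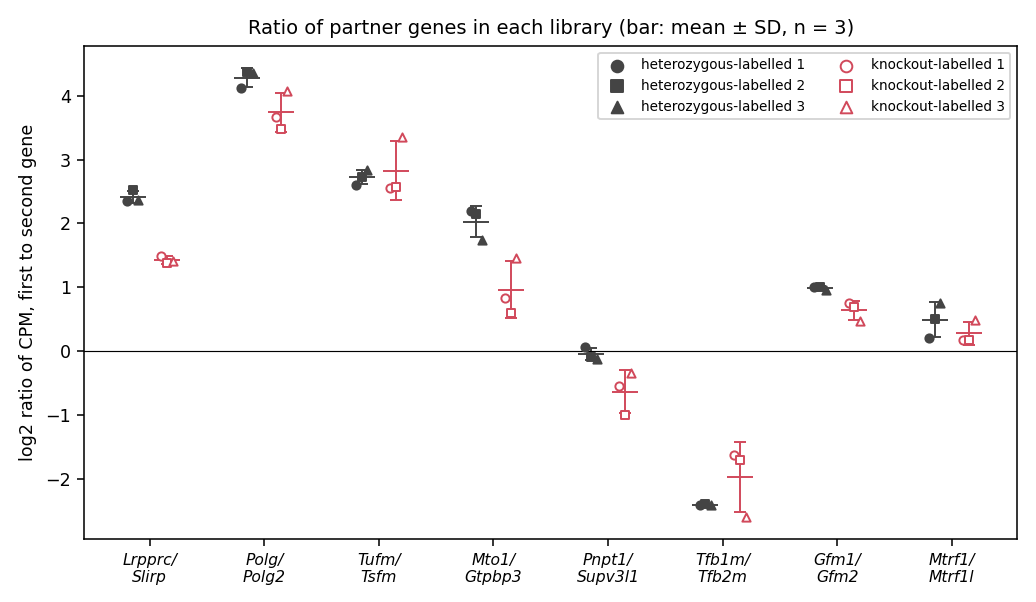
Symbols give, for each of 8 gene pairs, the log2 ratio of the CPM of the first to the second gene in each library, with bars for the mean ± SD (n = 3). The knockout-labelled ratios lie below all heterozygous-labelled ones in 5 pairs, with Lrpprc to Slirp at 1.38 to 1.496 against 2.35 to 2.53. The level of Slirp is uncertain, because 93.9% of its merged exon bases overlap those of Snw1.

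Per length, levels among the factors spanned a wide range. In the heterozygous-labelled libraries the highest level per kilobase of merged exons was that of Tufm, 89.7 ± 4.22 CPM per kilobase (SD, n = 3), followed by Gfm1 (49.2 ± 5.64), Taco1 (35.5 ± 2.42) and Ptcd2 (31.1 ± 0.908). Tufm, Gfm1 and Taco1 were each apart from the next gene by more than the SDs of both added together. Ptcd2 was not, with Tfb2m next at 27.9 ± 2.36 CPM per kilobase. In the knockout-labelled libraries Tufm was still highest, at 51.6 ± 5.98 CPM per kilobase, while Gfm1 stood at 19.0 ± 0.94, Taco1 at 15.4 ± 1.67 and Ptcd2 at 26.3 ± 3.09. Gfm1 and Taco1 were thus above Ptcd2 in the level per kilobase in one group and below it in the other. The lowest was Polg2, at 0.614 ± 0.0352 and 0.743 ± 0.228 CPM per kilobase. Merged exons count every annotated isoform, so genes with long alternative exons are understated on this scale.

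Across the factors, ETS cores were common in the promoter windows. Of the 40 genes, 36 had a window in the RefSeq table, and 15 of these 36 (41.7%) spelled CCGGAAG on either strand, against 16.4% of the 12766 windows of genes tested and 8.86% of all 32851 windows. Tfam, Polg, Ssbp1, Polrmt, Tefm, Tufm and Mtif2 were among the 15. Of the 6 factors that fell 1 was, Gfm1, and 6 genes are too few to set against the share of genes tested. The strict NRF-1 palindrome, the loose form with A at its open base, was in 0 of the 36 windows, against 2.01% of windows of genes tested. The loose NRF-1 form was in 4 (11.1% against 9.45%), those of Polrmt, Fastkd3, Ptcd1 and Gfm2. The YY1 core was in 3 (8.33% against 1.87%), those of Slirp, Ptcd2 and Ptcd3. The median GC content of the windows was 59.7% for the factors and 60.7% for genes tested. These are matches of letters, and nothing was measured here at the promoters.

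Other genes of mitochondrial gene expression had smaller differences on balance. Of 68 further factors tested, 2 fell (2.94%, against 0.534% of all genes tested) and 0 rose. Of the 68, 51 had log2 fold changes below 0 (75%, against 46.9% of all genes tested), and the median was -0.25. The genes that fell were Pet112, a subunit of the enzyme that makes mitochondrial glutaminyl-tRNA, and Nsun4, which methylates the small ribosomal RNA and helps assemble the ribosome. Pet112 went from 44.0, 52.5 and 44.6 CPM to 17.5, 21.6 and 21.4 CPM (log2 -1.22, adjusted p = 0.0259), and Nsun4 from 28.4, 30.3 and 29.7 CPM to 12.7, 13.9 and 16.3 CPM (log2 -1.04, adjusted p = 0.0367). By role, 11 of 14 genes of mitochondrial DNA and nucleotide supply were below 0 (median -0.30, leading genes Top1mt at -0.49 and the replicative helicase Peo1 at -0.43). Of 16 further transcription and RNA genes, 14 were below 0 (median -0.23), of 14 further tRNA modifiers 8 (median -0.11), and of 24 ribosome assembly and translation genes 18 (median -0.25). Osgepl1, which modifies the base next to the tRNA anticodon, was at -0.82 (adjusted p = 0.0624), Mterfd3, of the transcription termination factor family, at -1.64 (adjusted p = 0.0788), and the ribosome assembly GTPase Noa1 at -0.54 (adjusted p = 0.0958).

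The products that these factors work beside differed in pattern by description. Of 77 mitochondrial ribosomal protein genes, taken by the symbols Mrpl and Mrps, 4 fell (5.19%, against 0.534% of all genes tested) and 0 rose. Of the 77, 43 were below 0 (55.8%, against 46.9% of all genes tested), and the median was -0.08. Of 17 mitochondrial aminoacyl-tRNA synthetases, 3 fell (17.6%, against 15% of the factors), among them Iars2 at -1.32 and Nars2 at -0.98, and 0 rose. All 17 were below 0, and the median was -0.72, against -0.41 for the factors. Whether these lists differ from the factors was not tested. Of 9 nuclear regulators of mitochondrial genes, 0 were called by edgeR (0 at an unadjusted p under 0.05 too), and all 9 overlapped between the groups, with a median of 0.08. Ppargc1a, the coactivator that drives mitochondrial biogenesis, varied widely within each group, at 429, 494 and 87.4 CPM and at 259, 262 and 64.2 CPM (log2 -0.79, adjusted p = 0.805). Library 3, whose title begins with RE, was the lowest in each group. Among libraries whose titles begin with RF, the knockout-labelled values lay below the heterozygous-labelled ones, and likewise for RE. Of the 9 regulators, 3 were below 0, among them Ppargc1b at -0.58 (adjusted p = 0.518), and 6 above. Why library 3 was lower was not tested. Nrf1, the activator whose site was searched above, was at 0.15 (adjusted p = 0.915), and Gabpa, the DNA-binding subunit of GABP, at 0.13 (adjusted p = 0.962).

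Skeletal muscle transcripts, none of which passed, lay lower in the knockout-labelled libraries. The mean log2 CPM of the 24 muscle markers was 8.55, 9.81 and 10.2 in heterozygous-labelled libraries 1, 2 and 3 and 7.90, 7.17 and 7.03 in knockout-labelled libraries 1, 2 and 3, and the markers had a median log2 fold change of -2.19. Within the heterozygous-labelled group the muscle markers were lowest in library 1, where the median factor stood 0.05 above the group's mean on the log2 scale, against -0.03 and -0.01 in libraries 2 and 3. None of these is much larger than the SD of such medians between libraries, 0.044. Of the factors that fell, Gfm1, Gfm2, Pnpt1, Mto1 and Taco1 were each highest in library 1. Taco1 was so only narrowly, at 51.3 CPM against 50.9 CPM in library 3. Lrpprc was highest in library 3, where muscle markers were highest. An order of libraries within this group cannot show what part muscle has in the difference between the groups, which was not tested. With the muscle mean as a covariate the median of the factors was -0.51 and Gfm1 was at -1.60, but no gene of the 13300 was called by edgeR (smallest adjusted p = 0.9999). At an unadjusted p under 0.05, 11 factors were lower and 0 higher, where 265 of the 13300 genes were under it in either direction. The muscle mean did not overlap between the groups, so this fit can hardly separate it from the genotype label. In whole tissue, fewer cells of a type and less RNA per cell cannot be told apart. Sums for 8 general adipocyte markers ran from 13453 to 17173 CPM in the heterozygous-labelled group and from 13920 to 18739 CPM in the knockout-labelled group. The sums of 8 endothelial markers (563 to 714 and 662 to 677 CPM), 8 macrophage markers (70.3 to 185 and 101 to 189 CPM), 6 fibroblast markers (833 to 1222 and 883 to 1210 CPM) and 7 lymphocyte markers (1.52 to 2.42 and 1.33 to 2.06 CPM) overlapped too. Of 5 red blood cell genes, 4 globin genes were at 0 in every library. The remaining gene, Alas2, was at 10.4, 7.81 and 16.6 CPM and at 17.9, 14.6 and 19.8 CPM, with overlap (log2 0.58, adjusted p = 0.502). Why the globin symbols held no reads was not tested. Genes held 43.9% to 48.4% of all reads in the heterozygous-labelled group and 51.0% to 58.3% in the knockout-labelled group, and the part of this difference in the results was not tested.

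The library titles carry 2 prefixes, RF in 2 libraries of each group and RE in 1 of each, whose meaning the labels do not give. Within the RF-titled libraries 34 of 40 factors were below 0 with a median of -0.42, and in the RE-titled pair, which has no test, 37 were below 0 with a median of -0.54. The 6 factors that fell had log2 values of -1.42 and -1.28 (Gfm1), -1.29 and -1.21 (Pnpt1), -1.30 and -1.02 (Mto1), -1.28 and -1.08 (Taco1), -1.13 and -0.79 (Gfm2) and -0.76 and -0.97 (Lrpprc) within RF and RE. With the prefix as a covariate 11 factors fell, the 6 and also Supv3l1, Ptcd3, Trmt10c, Mtif3 and Tufm, where 1.83% of all genes fell.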

How the data were processed

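RNA was extracted from frozen, pulverised brown adipose tissue from 3 mice of each genotype label (per the labels' protocols). Read counts per gene symbol were deposited by the authors. Per the submitters' processing notes, the tools were SAMtools 1.9, STAR 2.7.2b, HTSeq, Bowtie2 2.3.4.3, edgeR and Trim Galore, on the build mm10, with no role for each. Annotation, strand setting and the rule for multiple matches were not given in the sources used here. Lines of summary, 5 in all, name no gene and stayed out of library sizes and tests. They are reads with several alignments (22.9% of the column total in heterozygous-labelled and 18.3% in knockout-labelled libraries on average), outside features (28.6% and 24.1%), ambiguous (0.34% and 0.441%), not aligned (1.94% and 1.95%) and of low quality (0.168% and 0.179%).

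The main test was edgeR 4.0.16 in R 4.3.3, with TMM scaling, filterByExpr (minimum count 10, minimum total 15), a robust quasi-likelihood F test on genotype and Benjamini-Hochberg adjustment over 13300 genes. Intervals are at 95%. Every pair of libraries differed by more than sampling noise (chi-square divided by degrees of freedom, 41.8 to 324). DESeq2 1.42.0 and limma 3.58.1 (voom) were alternatives. The test was tried on simulated counts. Coordinates, merged exon lengths and overlaps came from GENCODE M21 (GRCm38), promoter windows from RefSeq. Libraries were grouped by the genotype label and numbered in accession order. The members, lists and alternatives were chosen with earlier results of these data known. Named were called factors, fixed anchor genes, the factors with the smallest p and the most extreme fold changes, and called or leading genes of the other lists. Other factors are given by fold change. The values of 1 gene of the other lists are not reported here.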

Additional observations from a re-analysis of the deposited data

How the results depend on the processing

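Every count of factors that fell was 6 or 7 under RLE scaling, library size only, no filter, a mean CPM of at least 1, muscle markers left out of library sizes, no robust estimation and the RF-titled libraries alone (6, of which 5 were among the main 6). It rose to 11 with the prefix of the titles as covariate, and was 15 by DESeq2, 10 by limma-voom with quality weights, 14 at an adjusted p of 0.1 and 0 with the muscle mean as a covariate. Leaving out 1 library at a time gave 0 to 6. No setting called a factor higher. The count over all genes, 71 lower and 7 higher, became 244 and 67 with the prefix, 113 and 19 in the RF-titled libraries, 644 and 127 by DESeq2, 165 and 29 by limma-voom, 440 and 60 at an adjusted p of 0.1, and 0 and 0 with the muscle mean (265 genes at an unadjusted p under 0.05). Without a filter 96 fell and 13 rose. Leaving out 1 library gave 0 to 381 lower, highest without heterozygous-labelled library 1, and 0 to 19 higher. The median of the factors moved beyond the spread between libraries to -0.46 with library size only, to -0.51 with the muscle mean and to -0.48 without knockout-labelled library 2, in a range of -0.48 to -0.38 over single libraries left out. The median of all genes tested, 0.02 in the main fit, was -0.03 with library size only, 0.02 with the muscle mean and 0.01 without knockout-labelled library 2. The cause of these moves was not tested.

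Some signs changed. Fam195a ran from -0.29 to 0.0325 over single libraries left out, the highest, 0.0325, without heterozygous-labelled library 3, and 0.0173 without knockout-labelled library 1. Over the same fits Polrmt ran from -0.095 to 0.18, Ssbp1 from -0.0817 to 0.0389, Tfb1m from -0.17 to 0.15, Gtpbp3 from -0.30 to 0.0535 and the Tufm to Tsfm ratio from -0.16 to 0.24. In the RF-titled libraries Tfb1m was at 0.19, Gtpbp3 at 0.16 and the Tufm to Tsfm ratio at -0.11. With the muscle mean Polrmt was at -0.0435, Tfb1m at 0.10, Fastkd3 at 0.0586 (against -0.47) and Gtpbp3 at 0.12. By limma-voom Tfb1m was at 0.0929 and Gtpbp3 at 0.0357, and with library size only Polrmt was at -0.0143. Of 720 alternative values of single factors, 643 kept direction and side of the threshold, 31 lost it, 29 gained it and 17 changed sign. No paired analysis was possible because the labels give the groups no shared replicate numbers. Depth limits Polg2 most, whose lowest count was 47 reads.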
